A study of Mus musculus with 8 samples.

Results

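Neurotrophin and GDNF family receptor genes were followed in mouse sympathetic ganglia with reduced *Isl1*, through 8 genes taken by symbol, *Ntrk2*, *Ntrk3*, *Ngfr*, *Ret*, *Gfra1*, *Gfra2*, *Gfra3* and the ligand gene *Bdnf*. All 8 had values at both stages, among 13506 genes listed at E11.5 and 13413 at E14.5. At E11.5, ganglia from *Isl1* CKO embryos (Wnt1-Cre;Isl1 f/f, labelled Isl1-/-) were set beside control ganglia (Wnt1-Cre;Isl1+/+, labelled wild type), and both carried Rosa26-tdTomato, by whose fluorescence the tissue was cleaned. Wnt1-Cre acts in neural crest lineages, so glial and sensory cells of these embryos can also lose *Isl1*. At E14.5, ganglia from *Isl1* hypomorphic embryos (Isl1 f-neo/f-neo, labelled Isl1 mutation), in which *Isl1* is reduced in every tissue, were set beside wildtype ganglia (Isl1+/+) that carried neither Cre nor reporter. There were 2 libraries per genotype and stage, each from ganglia pooled over about 10 embryos.

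Neurotrophins are survival and axon growth factors that bind Trk receptor tyrosine kinases. *Ntrk2* encodes TrkB, the receptor of BDNF, and *Ntrk3* encodes TrkC, the receptor of NT-3. *Ngfr* encodes the shared low-affinity receptor, which neurons, neural crest cells and glia all use. The ligands of the GDNF family bind a GPI-anchored co-receptor of the GFRα family, and the pair then engages the receptor tyrosine kinase RET. GFRα1 prefers GDNF, GFRα2 neurturin and GFRα3 artemin. Young sympathetic neuroblasts are known to carry TrkC, RET and GFRα3, and RET and TrkC are retained by cholinergic sympathetic neurons.

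Expression was available as FPKM, fragments per kilobase of transcript scaled to the mapped fragments of a library, which allows levels of different genes to be compared within a column. The authors merged both libraries of each genotype, leaving 1 value, so every difference given here stands without a replicate check, no test of it was made, and the depth is unknown. *Isl1*, the targeted gene, had 133 FPKM in control ganglia and 40.0 in the CKO at E11.5, and 162 FPKM in wildtype ganglia and 83.1 in the hypomorph at E14.5. It was thus 3.31-fold lower in the CKO and 1.95-fold lower in the hypomorph, which was the direction of both labels. Sympathetic neuron genes marked all 4 columns, with *Th*, the rate-limiting enzyme of catecholamine synthesis, at 184 FPKM in control, 145 in CKO, 280 in wildtype ganglia and 207 in the hypomorph. Log2 ratios were computed from FPKM + 0.1, which understates changes of genes with low values, and a difference of 1.5-fold or more was counted.

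Of the 8 genes, 4 (*Ntrk2*, *Ngfr*, *Gfra1* and *Bdnf*) matched the RefSeq promoter table of GRCm38.p6, and their sequences are shown because they include the members furthest from control in the CKO on either side, *Bdnf* and *Gfra1*. They were searched for TAAT, the core bound by LIM homeodomain and many other homeodomain proteins. Each sequence is the 250 bases before the start of transcription, 5′ to 3′ on the strand of the gene, with TAAT on either strand in capitals. Overlapping copies were counted separately. *Bdnf* has 7 such promoters in the table, of which 4 hold TAAT, and the one with the most copies is shown (chr2:109692777-109693026, plus strand). The other genes have 1 promoter each, *Ngfr* at chr11:95587699-95587948 on the minus strand, *Gfra1* at chr19:58455399-58455648 on the minus strand and *Ntrk2* at chr13:58806319-58806568 on the plus strand.
Bdnf: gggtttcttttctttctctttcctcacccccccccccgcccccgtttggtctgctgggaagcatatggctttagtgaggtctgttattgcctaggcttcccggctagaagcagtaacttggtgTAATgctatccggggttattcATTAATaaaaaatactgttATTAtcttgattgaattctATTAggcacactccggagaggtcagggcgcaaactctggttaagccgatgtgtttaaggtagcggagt
Ngfr: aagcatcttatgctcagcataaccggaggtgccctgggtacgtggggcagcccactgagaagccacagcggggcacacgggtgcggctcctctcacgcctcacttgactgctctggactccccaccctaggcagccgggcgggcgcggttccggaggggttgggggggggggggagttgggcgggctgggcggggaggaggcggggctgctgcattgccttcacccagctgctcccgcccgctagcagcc
Gfra1: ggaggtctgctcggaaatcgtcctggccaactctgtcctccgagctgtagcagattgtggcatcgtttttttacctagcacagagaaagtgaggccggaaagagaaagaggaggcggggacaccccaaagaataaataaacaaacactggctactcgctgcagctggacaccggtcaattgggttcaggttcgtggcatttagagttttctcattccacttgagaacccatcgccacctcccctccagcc
Ntrk2: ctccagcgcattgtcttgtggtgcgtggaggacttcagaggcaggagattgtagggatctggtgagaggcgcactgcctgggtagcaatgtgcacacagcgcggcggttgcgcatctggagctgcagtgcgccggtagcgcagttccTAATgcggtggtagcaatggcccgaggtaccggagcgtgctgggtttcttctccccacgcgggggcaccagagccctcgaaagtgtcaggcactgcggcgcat
The *Bdnf* stretch holds 5 copies of TAAT and the *Ntrk2* stretch holds 1, which lies within a CTAATG, and those of *Ngfr* and *Gfra1* hold 0. Since the *Bdnf* stretch was picked from 7 for its copies, while 3 of the 7 hold 0, its count is not comparable with those of genes that have 1 promoter. TAAT occurs in 54.9% of all 32851 promoters of that length and CTAATG in 6.36%. The *Ngfr* stretch is the richest in G and C of the 4, at 70.4% against 47.2% for *Bdnf*, 52.4% for *Gfra1* and 62.8% for *Ntrk2*. A match is a string of letters and no measured binding.

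The question of the E11.5 comparison was what neural crest loss of *Isl1* did to the receptor set of young neurons. Among the 8 genes, 2 were at least 1.5-fold lower in CKO ganglia (*Bdnf* and *Gfra3*) and 2 at least 1.5-fold higher (*Gfra1* and *Ngfr*). Of all 13506 genes, 12.9% were lower and 18.9% higher by that fold, so 4 of 8 members past it stand beside 31.8% of the table. The median log2 ratio of the members was 0.01, beside 0.05 for all genes.

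*Bdnf*, the ligand of TrkB, was the member furthest from control. It had 4.47 FPKM in control ganglia and 1.23 FPKM in the CKO, and was 3.62-fold lower (log2 ratio -1.78). It was the least abundant of the 8 genes in both columns, at percentile 26.5 and 4.89 of the listed genes. The number of fragments behind so low a level is unknown.

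The receptor of BDNF, *Ntrk2*, had 5.18 FPKM in control ganglia and 6.75 in the CKO, a 1.31-fold difference. *Ntrk3* had 25.8 and 18.7 FPKM and was 1.38-fold lower, a log2 ratio of -0.46 that came to 0.03 when all ratios were centred on sympathetic neuron genes and to -0.70, past 1.5-fold, with columns rescaled without erythroid genes. With FPKM as deposited neither gene passed 1.5-fold. *Ntrk3* was more abundant than *Ntrk2* in both genotypes, with a ratio of the levels of 4.98 in control ganglia and 2.76 in the CKO. Such ratios are formed within a column and do not depend on how columns are scaled to each other.

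*Ngfr* had 27.7 FPKM in control ganglia and 46.1 in the CKO and was 1.66-fold higher (log2 ratio 0.73), though with columns rescaled without erythroid genes the log2 ratio was 0.50, under 1.5-fold. *Sox10*, a neural crest and glial transcription factor, was higher too, at 29.3 and 59.3 FPKM, so that *Ngfr* per *Sox10* was 0.944 in control ganglia and 0.778 in the CKO. Of a list of 20 neural crest and glial genes, 18 had values and 16 of those were at least 1.5-fold higher, with a median log2 ratio of 1.08 and a summed level of 455 FPKM in control ganglia and 975 in the CKO. In bulk tissue, more cells of a type and more RNA per cell cannot be told apart, and the part of glial cells in the *Ngfr* difference was not tested.

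RET, the signalling receptor of the GDNF family, was nearly level between the genotypes, with *Ret* at 106 FPKM in control ganglia and 97.6 in the CKO (log2 ratio -0.11). It was the most abundant of the 8 genes in both columns. The co-receptor genes went different ways around it. *Gfra3*, which encodes the artemin co-receptor, had 68.0 FPKM in control ganglia and 45.0 in the CKO, 1.51-fold lower and just past the threshold. *Gfra1*, which encodes the GDNF co-receptor, had 13.99 and 26.4 FPKM and was 1.89-fold higher. *Gfra2*, which encodes the neurturin co-receptor, had 19.6 and 21.7 FPKM, a 1.10-fold difference whose log2 ratio lay between -0.09 and 0.64 over the scalings tried.

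The summed FPKM of *Gfra1* to *Gfra4* was 104 in control ganglia and 96.6 in the CKO, and *Ret* per unit of that sum was 1.01 in both. Within the sum, *Gfra3* took 65.1% in control and 46.6% in CKO ganglia and *Gfra1* 13.4% and 27.3%. With FPKM as deposited, the co-receptor total thus differed little between the genotypes while its makeup did. The total is compared across columns and moves with their scaling, whereas the shares are formed within a column. *Gfra1* per *Sox10* was 0.477 in control ganglia and 0.446 in the CKO. Over the 16 genes of the sympathetic neuron list the median log2 ratio was -0.49. What part the mix of neurons and glia had in the *Gfra* values was not tested.

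The E11.5 columns differed in other tissue too. Of 13 mesenchyme genes, 9 were at least 1.5-fold higher in CKO ganglia (summed FPKM 609 in control and 1060 in CKO), as were 6 of 7 macrophage genes with values (28.6 and 57.3 FPKM summed), and erythroid genes took 2.29% of the FPKM of control and 11.2% of the FPKM of CKO ganglia. *Hbb-y*, an embryonic globin gene, is listed at 7552 FPKM in control ganglia and at 0 in the CKO, while 11 of 12 erythroid genes with values were at least 1.5-fold higher, and without *Hbb-y* the shares were 0.701% and 11.2%. All 8 genes of a cell cycle list were at least 1.5-fold lower. Of 7 enteric and vagal crest genes, a list that includes *Ret* and *Sox10*, 4 were at least 1.5-fold higher (median log2 ratio 1.01). *Nos1* among these was under 1 FPKM in control ganglia, so only its CKO value brought it in. *Vip*, a neuropeptide gene of cholinergic and enteric neurons, was the 1 at least 1.5-fold lower (26.9 and 7.18 FPKM). Sensory neurons express the same receptor families. Of 17 sensory neuron genes, 9 had values, of which 4 were at least 1.5-fold higher and 1, *Shox2* (21.5 and 4.05 FPKM), at least 1.5-fold lower, with a median log2 ratio of 0.49. Their summed FPKM was 41.4 in control ganglia and 29.4 in the CKO, and 19.9 and 25.3 without *Shox2*, which turns the direction. *Pou4f1*, which defines these neurons, had 0.676 and 1.57 FPKM. *Neurog2*, *Prdm12* and *Pou4f1* were under 1 FPKM in control ganglia. They were thus listed through the CKO column alone and could come out only higher, which lifts the count and the median. *Prrxl1* (10.1 and 7.98 FPKM) and *Calca* (2.07 and 1.40 FPKM) were lower by less than 1.5-fold, so 3 of the 9 genes lay below 0. With all log2 ratios centred on the sympathetic neuron list, *Ngfr*, *Gfra1*, *Ntrk2* and *Gfra2* were past 1.5-fold on the higher side, *Gfra3* was not past that fold, and the log2 ratio of *Ret* was 0.38.

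**Figure D1:**
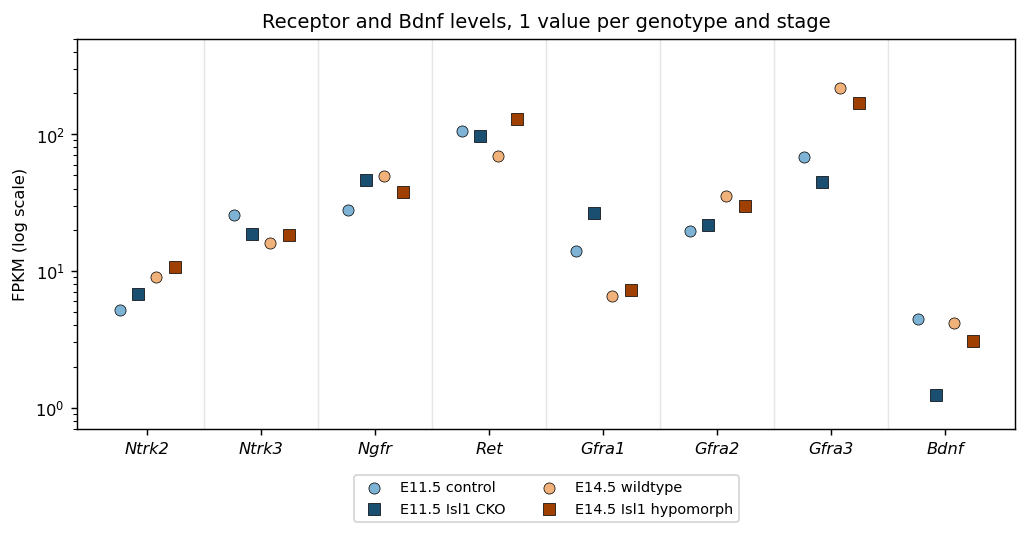
FPKM (log scale) of *Ntrk2*, *Ntrk3*, *Ngfr*, *Ret*, *Gfra1* to *Gfra3* and *Bdnf*, with circles for control or wildtype and squares for mutant ganglia, 1 value per genotype and stage over 2 libraries, so that no error bar can be drawn. *Gfra3* spans from 45.0 to 217 FPKM, while *Ret* stays between 68.8 and 130 FPKM in all 4 columns.

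At E14.5 the comparison asked what a partial loss of *Isl1* did once the neurons had begun to mature. *Ret* was the 1 member at least 1.5-fold higher in hypomorphic ganglia, and 0 members were at least 1.5-fold lower. Of all 13413 genes, 2.89% were higher and 2.12% lower by that fold, 5.0% in all. The spread of the whole table was narrow, with quartiles of the log2 ratio at -0.11 and 0.13, beside -0.31 and 0.45 at E11.5.

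*Ret* had 68.8 FPKM in wildtype ganglia and 130 FPKM in the hypomorph and was 1.89-fold higher (log2 ratio 0.91). Under the 4 other scalings of the columns its log2 ratio stayed between 0.91 and 0.94. The co-receptors did not follow it. *Gfra3* had 217 FPKM in wildtype ganglia and 169 in the hypomorph, 1.28-fold lower, *Gfra2* had 35.1 and 29.7 FPKM, 1.18-fold lower, and *Gfra1* had 6.61 and 7.31 FPKM. *Ret* per unit of summed *Gfra* expression was therefore 0.262 in wildtype ganglia and 0.620 in the hypomorph. Within that sum the makeup was close between the genotypes, with *Gfra3* at 82.6% and 80.6% and *Gfra2* at 13.4% and 14.2%.

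*Ntrk3* had 15.97 FPKM in wildtype ganglia and 18.3 in the hypomorph, and *Ntrk2* had 9.03 and 10.8 FPKM, differences of 1.14-fold and 1.19-fold. Their ratio was 1.77 in wildtype ganglia and 1.69 in the hypomorph, so the balance of both receptor genes was close between the genotypes. *Ret* per *Ntrk3* was 4.31 in wildtype ganglia and 7.11 in the hypomorph.

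*Ngfr* had 49.5 FPKM in wildtype ganglia and 38.1 in the hypomorph, 1.3-fold lower, and *Bdnf* had 4.18 and 3.07 FPKM, 1.36-fold lower. *Sox10* was at 28.7 and 30.4 FPKM, and 0 of 18 neural crest and glial genes were past 1.5-fold, with a median log2 ratio of 0.14. The lower *Ngfr* value thus stood beside glial genes that were level or slightly higher. The median of the sympathetic neuron list was -0.02. Genes of other tissue were slightly higher in the hypomorph, with 8 of 8 endothelial genes above 0 (median log2 ratio 0.48), 7 of 7 macrophage genes (0.32), 12 of 13 mesenchyme genes (0.27) and 8 of 8 cell cycle genes (0.51), of which 1 endothelial and 1 cell cycle gene were past 1.5-fold. Of the sensory neuron list, 7 genes had values at this stage, with summed FPKM of 38.5 in wildtype ganglia and 63.6 in the hypomorph, and 11.7 and 12.3 without *Shox2* (26.8 and 51.3 FPKM). Of 7 enteric and vagal crest genes, 3 lay past 1.5-fold on the higher side, *Ret* itself, *Hoxb5* (3.97 and 6.04 FPKM) and *Vip* (18.04 and 45.3 FPKM). *Hoxb3*, *Sox10* and *Ednrb* were higher by less than 1.5-fold, and *Nos1* was lower (2.88 and 2.69 FPKM). The part of other neurons in the *Ret* difference was not tested.

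**Figure D2:**
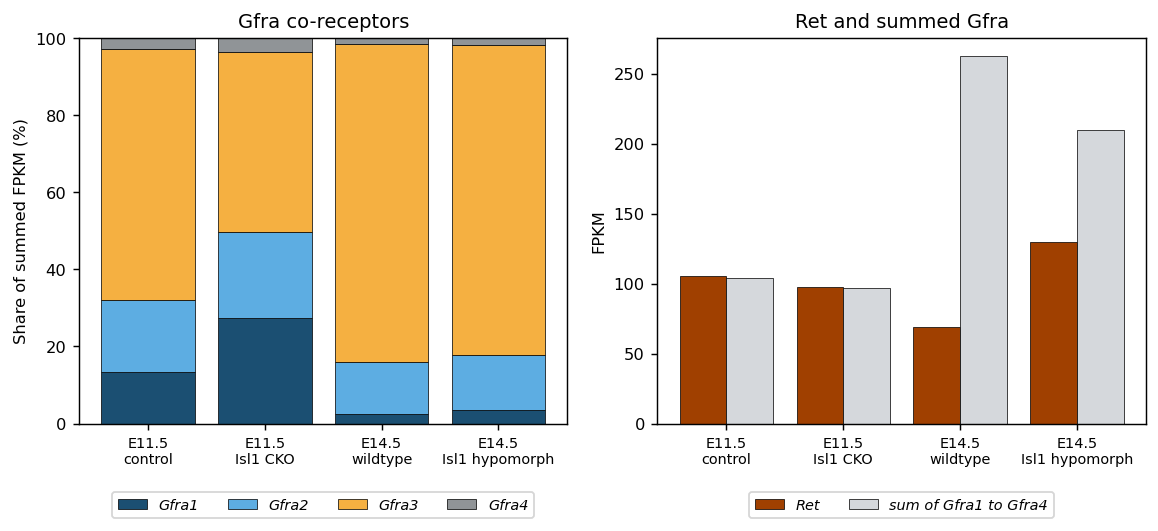
Share in percent of each gene in the summed FPKM of the 4 *Gfra* genes, as stacked bars (left), and FPKM of *Ret* beside that sum (right), in each of the 4 columns, with 1 value each and no error bar. *Gfra3* takes the most of *Gfra* expression in every column, and *Ret* per unit of the sum is 1.01 in both E11.5 columns, 0.262 in E14.5 wildtype and 0.620 in hypomorphic ganglia.

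Between the control columns of the stages, *Gfra3* was the member that stood most above its earlier level and *Gfra1* the one most below it. The comparison sets E14.5 wildtype over E11.5 control ganglia, whose values were normalized separately by the authors, and the embryos also differ in Wnt1-Cre, the reporter and the manner of dissection, so stage cannot be told apart from these. Among the 8 genes, 4 were at least 1.5-fold higher at E14.5 (*Gfra3*, *Gfra2*, *Ngfr* and *Ntrk2*) and 3 at least 1.5-fold lower (*Gfra1*, *Ntrk3* and *Ret*). Of the 12668 genes that reached an FPKM of 1 at either stage, 29.7% were higher and 12.8% lower by that fold, 42.5% in all, with a median log2 ratio of 0.24. Taken relative to that median, 3 members were higher and 3 lower, since the log2 ratio of *Ntrk2* was then 0.56, under 1.5-fold. *Ret* was just past the threshold, and its log2 ratio of -0.62 came to -0.58 both when rescaled without erythroid genes and after quantile normalisation, which left 2 lower members, *Gfra1* and *Ntrk3*.

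*Ntrk3* had 25.8 FPKM at E11.5 and 15.97 at E14.5, 1.61-fold lower, while *Ntrk2* had 5.18 and 9.03 FPKM, 1.74-fold higher. The ratio of *Ntrk3* to *Ntrk2* was thus 4.98 at E11.5 and 1.77 at E14.5. *Ntrk3* was still the more abundant of the pair at the later stage.

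*Gfra3* had 68.0 FPKM at E11.5 and 217 at E14.5, 3.19-fold higher and the steepest of the 8 genes. *Gfra2* had 19.6 and 35.1 FPKM, 1.79-fold higher. *Gfra1* went the other way, with 13.99 and 6.61 FPKM, 2.12-fold lower. The summed *Gfra* expression was 104 and 262 FPKM, and *Ret*, at 106 and 68.8 FPKM, was 1.54-fold lower, so that *Ret* per unit of that sum was 1.01 at E11.5 and 0.262 at E14.5. At the early stage *Ret* was the most abundant of the 8 genes, and at the later stage *Gfra3* was.

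*Ngfr* had 27.7 FPKM at E11.5 and 49.5 at E14.5, 1.79-fold higher, while *Sox10* was level at 29.3 and 28.7 FPKM. *Bdnf* was at 4.47 and 4.18 FPKM, a ratio of 1.07. Sympathetic neuron genes were higher at E14.5, with a median log2 ratio of 0.74 over 16 genes and *Th* at 184 and 280 FPKM. Centred on that list, *Ntrk2*, *Ngfr* and *Gfra2* had log2 ratios of 0.06, 0.10 and 0.10, *Gfra3* was still higher at 0.94, and *Ntrk3*, *Ret*, *Gfra1* and *Bdnf* were lower by 1.5-fold or more.

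**Figure D3:**
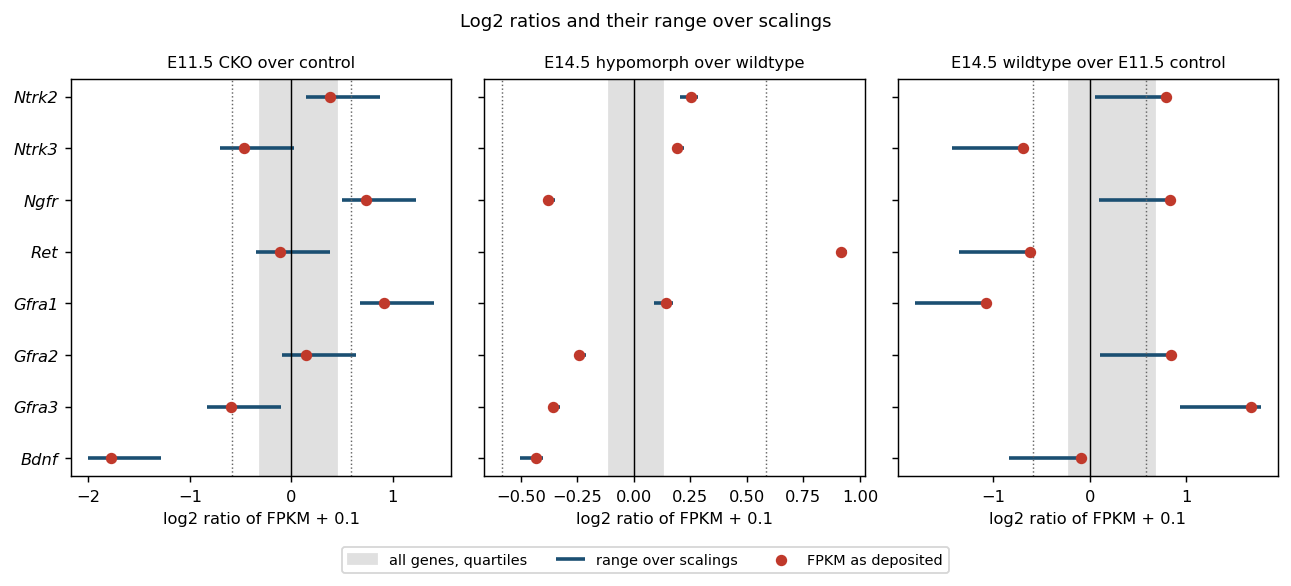
Log2 ratios of FPKM + 0.1 for the 8 genes in the 3 comparisons, each with its own horizontal scale, with a red point for FPKM as deposited, a blue bar for the range over that value and the 4 other scalings, a grey band for the quartiles of all genes and dotted lines at 1.5-fold. The bars are short in the E14.5 comparison, where *Ret* stays between 0.91 and 0.94, and long in both comparisons that use an E11.5 column.

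The hypomorph values can be set beside this stage difference. *Ret*, lower at E14.5 than at E11.5 in control ganglia, was 1.89-fold higher in the hypomorph than in the wildtype. *Gfra3*, *Gfra2* and *Ngfr*, each higher at E14.5 than at E11.5 in control ganglia, were lower in the hypomorph than in the wildtype by less than 1.5-fold. *Gfra1* and *Ntrk3*, each lower at E14.5 in control ganglia, were higher in the hypomorph by less than 1.5-fold. *Ntrk2*, higher at E14.5 in control ganglia, was also higher in the hypomorph by less than 1.5-fold. *Bdnf*, nearly level between the control columns (log2 ratio -0.09), was lower in the hypomorph by less than 1.5-fold (-0.43). These comparisons share the E14.5 wildtype libraries, so their directions are not independent of each other, and no share of agreement is given.

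In order of level, E11.5 control ganglia had *Ret*, *Gfra3*, *Ngfr*, *Ntrk3*, *Gfra2*, *Gfra1*, *Ntrk2* and *Bdnf*. In CKO ganglia *Ngfr* (46.1 FPKM) and *Gfra3* (45.0 FPKM) were side by side after *Ret*, and *Gfra1* stood ahead of *Gfra2* and *Ntrk3*. The orders of the E14.5 columns were the same as each other, from *Gfra3* and *Ret* through *Ngfr*, *Gfra2*, *Ntrk3*, *Ntrk2* and *Gfra1* to *Bdnf*. With 1 value per genotype, whether neighbours in these orders differ beyond the spread of the libraries is unknown.

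Sympathetic neurons take most of these factors from other tissue, and the other ligand genes reported here were low. *Nrtn*, which encodes neurturin, had 0.692 FPKM in control ganglia and 7.10 in the CKO at E11.5, 10.3-fold higher by the ratio of the values. Its control value was under 1 FPKM, so it was listed through the CKO column alone and the fold divides by a value near the floor. It had no value at E14.5. *Ntf3*, which encodes the ligand of TrkC, had 1.39 FPKM in control ganglia and 2.52 in the CKO at E11.5, and also no value at E14.5. At E14.5, *Pspn*, the persephin gene, had 1.41 FPKM in wildtype ganglia and 1.27 in the hypomorph. *Nrtn* was the 1 of these over 5 FPKM in any column.

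Other receptors of the neurotrophin list were mixed. At E11.5, 4 of 11 genes with values were at least 1.5-fold higher in CKO ganglia and 0 at least 1.5-fold lower, beside 18.9% and 12.9% of all genes. *Sorcs3* among the 4 (0.495 FPKM in control and 1.62 in CKO) was listed through the CKO column alone and could come out only higher. The higher ones over 5 FPKM were the sortilin family genes *Sorcs1* (11.4 and 20.1 FPKM) and *Sorcs2* (7.15 and 14.8 FPKM), while *Sort1*, whose product binds pro-neurotrophins together with the low-affinity receptor, was level at 27.8 and 26.4 FPKM. At E14.5, 1 of 9 genes was at least 1.5-fold lower in the hypomorph, *Lingo1* (10.6 and 6.30 FPKM), whose product pairs with the low-affinity receptor, and 0 were at least 1.5-fold higher. Of all genes, 2.12% were lower and 2.89% higher by that fold. *Lingo1* was at 2.15 FPKM in E11.5 control ganglia. The remaining receptor genes of this list with values ranged in E11.5 control ganglia from 3.33 FPKM (*Tnfrsf19*) through *Rtn4r* (4.19), *Sorl1* (9.04) and *Tnfrsf21* (14.5) to *Nradd* (15.9).

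On the list of other GDNF family genes, 3 of 6 with values were at least 1.5-fold higher at E11.5 and 1 at least 1.5-fold lower. *Nrtn* was among the 3 and, being listed through the CKO column alone, could come out only higher. *Ncam1*, a cell adhesion molecule that can also bind GDNF with GFRα1, was the lower one, with 65.6 FPKM in control ganglia and 20.8 in the CKO. *Gas1*, which encodes a GPI-anchored relative of the GFRα proteins, had 23.0 and 43.6 FPKM and *Lrig1*, a RET inhibitor gene, 5.46 and 9.54 FPKM. By that fold 18.9% of all genes were higher and 12.9% lower, so differences in both directions are not particular to this list. At E14.5, 0 of 6 were past 1.5-fold, beside 5.0% of all genes, and *Ncam1* had 199 FPKM in wildtype ganglia and 147 in the hypomorph. *Gfra4*, the persephin co-receptor gene, stayed between 2.82 and 3.84 FPKM in all 4 columns. *Sdc3*, which encodes a proteoglycan that binds GDNF, had 50.1 FPKM in control ganglia and 52.3 in the CKO, and 110 FPKM in wildtype ganglia and 95.2 in the hypomorph.

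Adaptors that couple Trk and RET kinases to the cell, with partners of the low-affinity receptor, formed a list of 31 genes. The median log2 ratio at E11.5 was -0.02. Of 28 with values, 6 were at least 1.5-fold higher and 2 at least 1.5-fold lower, beside 18.9% and 12.9% of all genes. Among these, *Dok2* (0.413 FPKM in control and 1.25 in CKO) was listed through the CKO column alone and could come out only higher. *Dok3* (1.12 and 0.557 FPKM) was listed through the control column alone and could come out only lower. Genes past 1.5-fold that reached 5 FPKM were *Gab1* (15.6 FPKM in control and 24.6 in CKO) and *Dok4* (4.87 and 7.64), both higher. At E14.5, 1 of 27, *Dok5* (5.19 FPKM in wildtype and 3.36 in hypomorph), was at least 1.5-fold lower and 0 were higher, with a median of -0.12 and 22 of 27 below 0. Of all genes, 2.12% were lower and 2.89% higher by that fold. Between the control columns, 15 of 27 were at least 1.5-fold higher at E14.5 and 0 lower, beside 29.7% and 12.8% of all genes. The median was 0.66 beside 0.24 for all genes. *Shc2*, an adaptor gene of neurons, had 32.005 and 84.5 FPKM in that comparison, *Kidins220*, which encodes a Trk-associated scaffold, 44.6 and 108 FPKM, and *Dok4* 4.87 and 18.6 FPKM. The others past 1.5-fold that reached 5 FPKM were *Frs3*, *Grb2*, *Gab2*, *Dok3*, *Dok5*, *Dok6*, *Sh2b1*, *Sh2b2*, *Sh2b3*, *Irs1* and *Rtn4*.

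**Figure D4:**
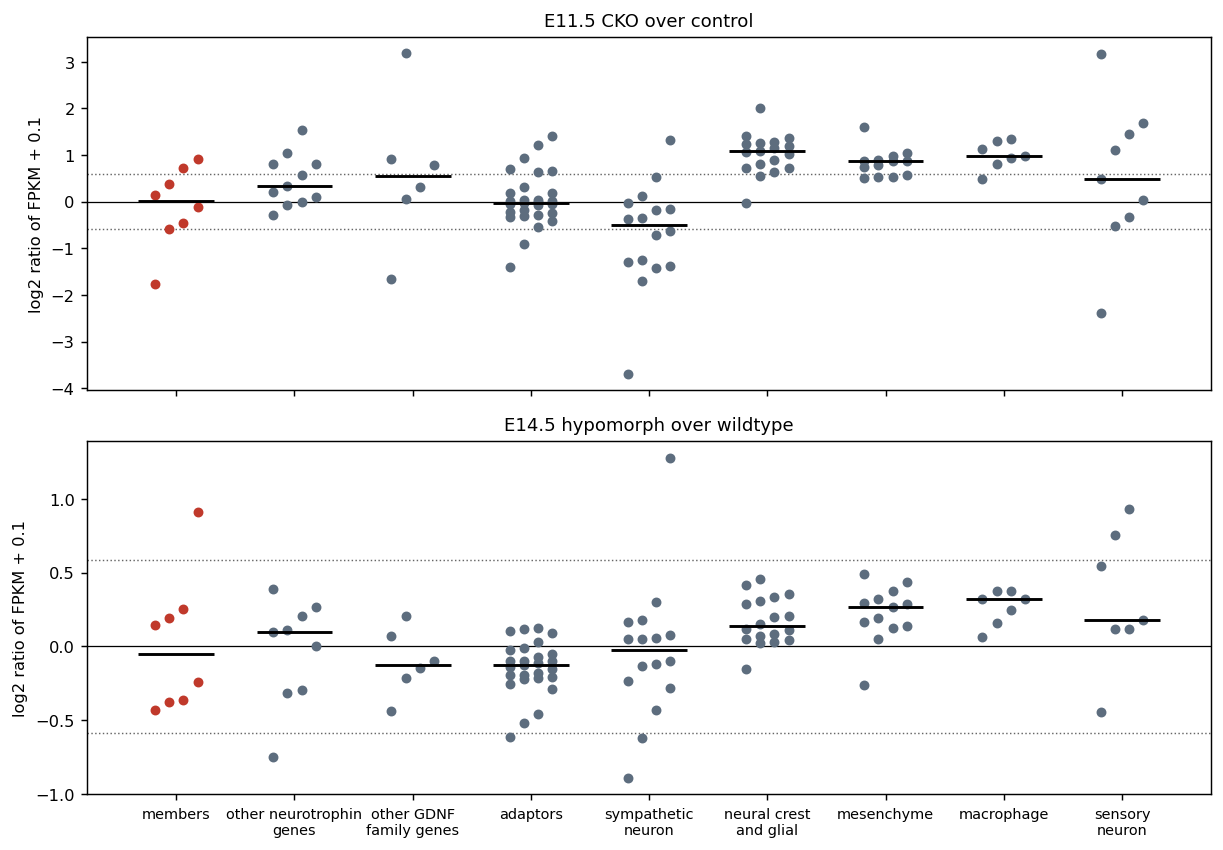
Log2 ratios of FPKM + 0.1 for each gene of the 8 members (red) and of the pathway and cell type lists (grey) at E11.5 (top) and E14.5 (bottom), with a black bar at the median of each list and dotted lines at 1.5-fold. At E11.5 the neural crest and glial genes lie around a median of 1.08 and the sympathetic neuron genes around -0.49, with the members on both sides of 0, while at E14.5 *Ret* is the 1 red point past a dotted line.

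The genes of most similar pattern were taken as the 3 nearest to each member in the 3 log2 ratios, among genes that reached 5 FPKM in any column. *Gfra3* lay nearest to *Ankrd13b* (distance 0.10 on the log2 scale), *Nrcam* (0.12) and *Tmem178b* (0.12). *Ntrk3* lay nearest to *Nup93* (0.06), *Ngfr* to *Ebpl* (0.11), *Gfra1* to *Fzd1* (0.12), *Gfra2* to *Stbd1* (0.03) and *Ntrk2* to *Egfl6* (0.05). *Ret* and *Bdnf* stood further from any other gene, with *Moap1* at 0.33 and *Lin7a* at 0.32. Each pattern rests on 3 ratios of 4 values, so likeness is a description only.

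In mm9, *Ret* spans from 118101766 to 118147762 on chromosome 6, *Ntrk3* from 85337248 to 85723294 on chromosome 7, *Ntrk2* from 58907957 to 59235331 on chromosome 13 and *Ngfr* from 95430132 to 95449049 on chromosome 11. *Gfra1* spans from 58310094 to 58530399 on chromosome 19, *Gfra2* from 71289927 to 71379645 on chromosome 14, *Gfra3* from 34849557 to 34880041 on chromosome 18 and *Bdnf* from 109514857 to 109567204 on chromosome 2. The Trk genes of the list have coding transcripts of different length, from 1368 to 2466 bases over 5 transcripts for *Ntrk2* and from 1839 to 2478 bases over 2 for *Ntrk3*. Both genes are known to make receptors without a kinase domain. A value per gene adds such forms together, so the FPKM of *Ntrk2* and *Ntrk3* does not show how much of either encodes a receptor with a kinase. The end of *Gfra1* overlaps *Gm16277*, a noncoding transcript on the opposite strand, and reads of the pair cannot be told apart without strand.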

How the data were processed

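Sympathetic ganglia were measured by RNA-seq in 8 libraries from paired-end reads of polyA RNA. The authors aligned reads to mm9 with TopHat and computed FPKM with cuffdiff, giving 1 deposited value per genotype from both libraries, for genes reaching an FPKM of 1 in at least 1 genotype. The submitters' processing notes name Bowtie, TopHat 1.3.1, Cuffdiff 1.3.0 and a fly build, dm3, whereas the methods name mm9. The symbols are those of mouse genes, and strand handling is not given in the sources used here. The tables also hold the authors' log2 fold changes and p-values, which were not used. Values per library and depth were not analysed here, so no precision is stated.

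Log2 ratios of FPKM + 0.1 were computed for genes reaching an FPKM of 1 in either column compared, and differences of 1.5-fold were counted, with no test. Shares were formed within a column. Genes were named when they were members, *Isl1*, a ligand or receptor of the pathway lists, another pathway gene at least 1.5-fold apart that reached an FPKM of 5, or nearest in pattern to a member. *Th*, *Sox10*, *Hoxb3*, *Hoxb5*, *Ednrb*, *Nos1*, *Vip*, *Shox2*, *Hbb-y*, *Pou4f1*, *Neurog2*, *Prdm12*, *Prrxl1*, *Calca* and *Tbx15* were picked from the marker lists after their values were seen. *Dok2* and, at E11.5, *Dok3* were named for a value under 1 FPKM in 1 column. Some genes of the lists are not reported here, and counts of the pathway lists leave them out. The members and lists were chosen with earlier results of these data known. The pseudocount, filter, fold and scaling (centring on all genes or on sympathetic neuron genes, rescaling without erythroid genes, quantile normalisation) were varied. Sums without *Hbb-y* or *Shox2* were added after seeing the data. Positions are from the GENCODE annotation of mm9. Python 3.11.15, numpy 2.4.6, pandas 2.3.3 and matplotlib 3.10.9 were used. Ratios and fold calls centred on all genes were checked on simulated data, and the motif count on made sequences. The other steps had no such check.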

Additional observations from a re-analysis of the deposited data

Results flagged for a closer look

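In 3 members the mutant lay on opposite sides of its control at the 2 stages, by log2 ratios that differ by more than 1.5-fold. The difference, E14.5 hypomorph minus E11.5 CKO, was 1.03 for *Ret* (-0.11 at E11.5 and 0.91 at E14.5), -1.11 for *Ngfr* (0.73 and -0.38) and 0.66 for *Ntrk3* (-0.46 and 0.19). None of these differences was tested, since each genotype has 1 value, and the mutants differ in allele, in the tissue that loses *Isl1* and in stage. Over the scalings tried, the E11.5 log2 ratio of *Ret* lay between -0.35 and 0.38 and that of *Ntrk3* between -0.70 and 0.03, so the side of the CKO value turns with the scaling for both, and that of *Ngfr* stayed between 0.50 and 1.23.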

How the results depend on the processing

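No paired analysis was possible because the tables hold 1 value per genotype, and for the same reason no library could be left out. Of 8 members, 2 were at least 1.5-fold lower in the CKO at E11.5, and 1 was with a pseudocount of 1, with an FPKM of 5 or more (which removes *Bdnf*), centred on the sympathetic neuron list, or at 2-fold, while 3 were (*Ntrk3* added) after rescaling without erythroid genes. The 2 higher members became 1 after rescaling without erythroid genes (*Gfra1*), 4 centred on the sympathetic neuron list and 0 at 2-fold. At E14.5, the 1 higher member (*Ret*) was 0 at 2-fold, and 3 instead of 0 members were lower at 1.2-fold (*Ngfr*, *Gfra3* and *Bdnf*). Between the control columns, the 4 higher members became 1 (*Gfra3*) centred on the sympathetic neuron list or at 2-fold, and the 3 lower became 1 (*Gfra1*) at 2-fold, 2 (without *Ret*) after rescaling without erythroid genes or quantile normalisation, and 4 (*Bdnf* added) centred on the sympathetic neuron list. The other 48 of 60 recomputed counts stayed within 1.5 times. Of 189 recomputed log2 ratios of the members, 8 moved by more than 1.5-fold, all between the control columns when centred on the sympathetic neuron list, and 0 past 1.5-fold changed sign. The median of all genes at E11.5 was -0.18 after rescaling without erythroid genes and 0.55 centred on the sympathetic neuron list, which moved the share of higher genes among those past 1.5-fold from 59.4% to 35.2% and 91.9%. At E14.5 this share was 57.7%, and 43.1% after quantile normalisation. Between the control columns it was 69.9%, 49.6% centred on all genes, 54.2% after quantile normalisation and 14.6% centred on the sympathetic neuron list.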
